A study of Mus musculus with 6 samples.

Results

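Scavenger and apoptotic cell uptake receptors were followed in mouse peritoneal macrophages as 10 genes taken by name from the deposited expression table, out of 54532 genes listed there. The members were Msr1, Marco, Cd36, Mrc1, Stab1, Cd163, Mertk, Axl, Gas6 and Mfge8, and all 10 were found. The macrophages had been drawn by thioglycolate lavage from male wild-type C57BL/6J mice of 6 to 8 weeks and studied in 3 groups of 2 libraries each (n = 2). Control cells were untreated. Model cells received lipopolysaccharide (LPS) at 500 ng/mL for 5.5 h and then ATP at 2 mM for 0.5 h, the usual sequence for priming and then activating the NLRP3 inflammasome. MUS cells received the same and also muscone, the macrocyclic ketone that gives musk its scent, at 50 µM from 0.5 h before ATP, so muscone entered after the LPS step had begun. The study asked what muscone changes in macrophages activated in this way. Replicate numbers matched the batch numbers in the labels, which do not say what a batch was, and nothing stated that replicates came from separate animals or cultures, so p-values measure only the spread between these libraries.

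Macrophages remove modified lipoproteins, microbes, debris and dying cells through receptors on their surface. Scavenger receptors bind many polyanionic ligands directly, whereas the receptor kinases Mertk and Axl see phosphatidylserine on an apoptotic cell only through a soluble bridge such as Gas6, and Mfge8 bridges the same lipid to alpha-v integrins. In peritoneal macrophages Mertk is a principal receptor for silent clearance of apoptotic cells, and Axl is known as the family member that inflammatory stimuli induce.

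Each library held between 15526321 and 17135442 fragments on genes, and FPKM (fragments per kilobase of gene, scaled to library size) is a level scaled by gene length, so genes can be compared with each other on it. The per-million scale behind the Control values was 1.34 to 1.45 times the library's fragment total, against 0.909 to 0.998 times in the other 4 libraries, and rescaling to fragment totals moved the median of all genes in Model vs. Control from 0.04 to -0.40 on the log2 scale. Changes on that scale are therefore also given relative to its median. Macrophage markers were all present, with 10 of 10 at a mean of at least 1 FPKM, a summed level of 9605 to 14366 FPKM over the 6 libraries and Lyz2 highest (10138 FPKM). The dendritic cell, T cell, mast cell and endothelial cell lists each had 0 markers at that level, with the highest genes Cd209a, Trac, Cma1 and Kdr at 0.150 to 0.713 FPKM. Neutrophil markers summed to 20.5 to 34.4 FPKM in Control, 61.3 to 114 in Model and 55.2 to 69.3 in MUS, with 2 of 8 at the minimum, S100a8 highest (54.2 FPKM) and S100a9, Ly6g and Retnlg listed at 0. Fibroblast markers (5 of 6 at the minimum, Col1a1 highest at 7.78 FPKM) summed to 18.5 to 19.3 FPKM in Control, 21.7 to 34.8 in Model and 22.8 to 25.3 in MUS. The eosinophil list (Siglecf highest at 2.01 FPKM, Epx and Prg2 listed at 0) summed to 2.95 to 4.19 FPKM in Control and 1.63 to 2.13 in the treated libraries, and the mesothelial list (Upk1b highest at 1.19 FPKM) between 2.09 and 3.93. The part of these cells in the member results was not tested, and in bulk RNA fewer cells of a type and less RNA per cell cannot be told apart.

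The promoters of Stab1, Gas6 and Axl are printed here, since among the members with a promoter in the RefSeq table, which has none for Msr1, they had the lowest (Stab1 and Gas6) and highest (Axl) log2 fold changes against Control. Each run is the 250 bases before the RefSeq start of the gene on GRCm38.p6, read 5′ to 3′ on the gene's minus strand. Stab1 is the window at chr14:31168642-31168891, Axl at chr7:25788734-25788983 and Gas6 at chr8:13494536-13494785. Capitals mark the motif matches, which are GAGGAA (a core of the sites bound by PU.1, the macrophage lineage factor) and GGGCGG (a GC box, bound by Sp factors), or their reverse complements.
Stab1: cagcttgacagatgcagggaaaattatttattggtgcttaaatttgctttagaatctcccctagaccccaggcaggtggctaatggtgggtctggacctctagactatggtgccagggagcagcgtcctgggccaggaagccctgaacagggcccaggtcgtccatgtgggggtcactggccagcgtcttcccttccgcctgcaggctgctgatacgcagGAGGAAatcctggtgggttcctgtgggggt
Axl: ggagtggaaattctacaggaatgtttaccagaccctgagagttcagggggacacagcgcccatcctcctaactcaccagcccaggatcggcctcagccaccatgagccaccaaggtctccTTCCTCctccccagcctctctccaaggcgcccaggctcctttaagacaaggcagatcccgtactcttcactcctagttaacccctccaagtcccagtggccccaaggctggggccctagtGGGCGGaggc
Gas6: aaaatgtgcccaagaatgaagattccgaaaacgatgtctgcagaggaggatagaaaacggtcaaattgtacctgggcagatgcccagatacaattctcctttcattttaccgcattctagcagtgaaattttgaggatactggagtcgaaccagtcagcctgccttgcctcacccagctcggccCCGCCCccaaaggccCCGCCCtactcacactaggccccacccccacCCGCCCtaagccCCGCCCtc
Stab1 held 1 PU.1 core, 30 bases before the start. Axl held 1 PU.1 core on the opposite strand, 130 bases before the start, and 1 GC box 10 bases before it. Gas6 held 4 GC boxes, the nearest 8 and the farthest 66 bases before the start, and no PU.1 core. Over the 9 members with a promoter in the RefSeq table (all but Msr1), 5 held GAGGAA and 6 held GGGCGG, where 23.4% and 33% of 32536 promoters of this length did. The nuclear receptor half-site AGGTCA occurred in 1 member, Cd36, and in 14% of all promoters. The RefSeq start used for Cd36 lies 52905 bases from the 5′ end of the gene as listed in the expression table. None of the 9 held TGANTCA (the AP-1 site, in 6.73% of all promoters), GGANTTTCC (part of a κB site, 1.07%), GAAANNGAA (interferon response, 7.15%), TCACGTGA (the E-box of TFE3 and MITF, 0.793%) or TATAAA (12.3%). Both strands were searched and no match overlapped another. The matches describe these letters in this window only.

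The 10 members covered more than 3 orders of magnitude in level. Cd36 was the 32nd most abundant gene of the table by mean FPKM, Msr1 ranked 175, Mfge8 380 and Axl 501. Mertk (rank 1475) and Mrc1 (1942) were intermediate, Marco (4950), Stab1 (5173) and Gas6 (6419) were low, and Cd163 (15288) was close to absent. Cd36 alone made up 75.7% to 77.8% of the summed FPKM of the members in Control and 57.4% to 61.6% in the other 4 libraries. That summed level ran from 1325 to 1583 FPKM over all libraries on the deposited scale. Relative to each library's fragment total, the summed fragments of the members were higher in both Control libraries than in any treated library. The share of Cd36 does not depend on the scale of a library, but the size of the sum does. Apart from Cd163, read from 3 to 23 fragments per library, each member rested on 47 fragments or more in every library.

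**Figure D1:**
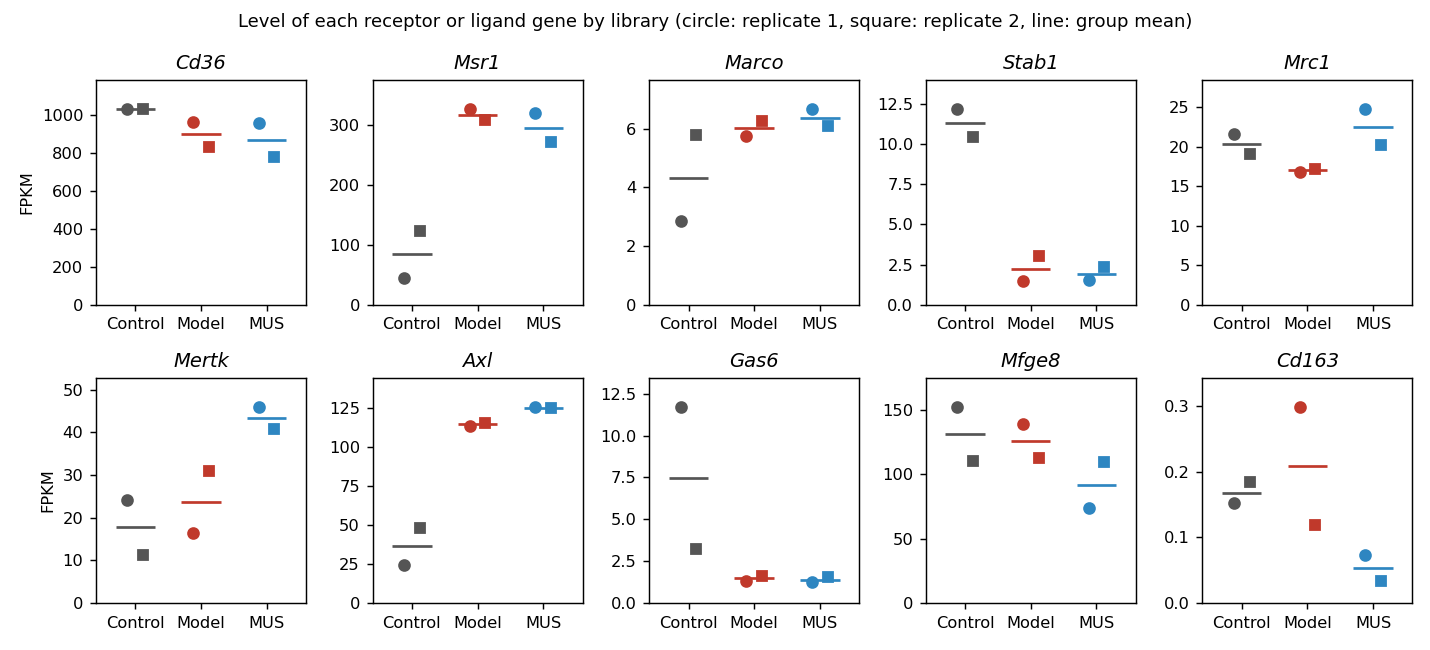
FPKM of each of the 10 members by library, 1 panel per gene with its own linear axis from 0, for Control, Model and MUS side by side. Circles are replicate 1, squares replicate 2 and lines the group means. Msr1 and Axl sat above both Control libraries, and Stab1 and Gas6 below them, in all 4 treated libraries, and Cd163 stayed under 0.3 FPKM throughout.

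Among the 9 members that passed the expression filter (mean of at least 1 FPKM, which Cd163 failed), Msr1 and Axl rose and Stab1 fell in Model vs. Control. A differentially expressed gene (DEG) was a gene with limma adjusted p of at most 0.05 and a log2 fold change of FPKM + 1 beyond 1 in either direction. By that rule 2 members rose and 1 fell, against 9.50% and 5.56% of all 9794 genes tested (15.1% in both directions). The other 6 did not pass. The median log2 fold change of the 9 was -0.05, and that of all genes tested was 0.04. For 6 of the 9 the Model libraries stood apart from Control without overlap (Cd36, Msr1, Mrc1, Stab1, Axl and Gas6), where 61.1% of all genes did not overlap. With 2 libraries against 2, an exact permutation test cannot go below p = 0.333, so the limma fit, which shares its estimate of spread across genes, was the only test made of each member.

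Msr1 (ENSMUSG00000025044, GRCm38 chr8:39581685-39642673, minus strand) encodes the class A scavenger receptor that takes up acetylated and oxidised low density lipoprotein and also binds LPS. Its level was 44.7 and 123 FPKM for Control, 326 and 307 for Model and 319 and 271 for MUS. All 4 treated libraries were above both Control libraries, which themselves differed more from each other than any treated pair did. The mean level went from 83.9 ± 55.4 (SD, n = 2) in Control to 317 ± 13.2 FPKM in Model, or 3.78-fold, a log2 fold change of 2.08 (SE 0.49, limma adjusted p = 0.0309). The within-batch differences were 2.84 and 1.31 on the log2 scale. The call ended without Control replicate 1, where the value was 1.36, and without either Model library. The call also ended without either MUS library, which left the value at 2.08 and changed only the estimate of spread. Over 19 alternatives it held in 10, with values of 1.17 to 2.80 and adjusted p from 0.00276 to 0.162.

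Marco, the other class A member, binds bacteria and inhaled particles. Its level was 2.86 and 5.77 FPKM in the Control libraries, 5.74 and 6.27 with Model treatment and 6.67 and 6.08 under MUS. Control replicate 2 already stood at the level of the treated libraries. The log2 fold change of 0.45 in Model vs. Control (95% interval -0.24 to 1.14, adjusted p = 0.311) did not pass the test. On fragment totals it was 0.00, where the median of all genes was -0.40. Marco and Msr1 therefore shared a low Control replicate 1 but not a call.

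Cd36 is the class B receptor for oxidised lipoprotein and long-chain fatty acids, and it also takes part in binding apoptotic cells. Its level was 1032 and 1030 FPKM (Control), 962 and 834 (Model) and 960 and 778 (MUS). The treated libraries all lay below Control, by a margin close to their own spread. Between Control and Model its log2 fold change was -0.20 (95% interval -1.06 to 0.65, adjusted p = 0.720). On fragment totals it was -0.75, or -0.35 relative to the median of all genes, and did not pass (adjusted p = 0.123).

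Mrc1, the mannose receptor CD206 that clears mannosylated glycoproteins, was at 21.6 and 19.1 FPKM for Control, 16.8 and 17.2 for Model and 24.7 and 20.2 for MUS. Model was the lowest group, and Control and MUS overlapped. The log2 fold change of -0.25 in Model vs. Control (adjusted p = 0.513) did not pass, nor did the -0.77 found on fragment totals (adjusted p = 0.0540), which was -0.37 relative to the median of all genes.

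Stab1 (ENSMUSG00000042286, chr14:31139013-31168641, minus strand) encodes stabilin-1, a receptor of alternatively activated macrophages that internalises acetylated lipoprotein and the matrix protein SPARC and can bind phosphatidylserine. Its level was 12.2 and 10.5 FPKM in the Control libraries, 1.45 and 3.03 with Model treatment and 1.53 and 2.34 under MUS. The groups of treated libraries lay well apart from Control and overlapped each other. From 11.3 ± 1.24 FPKM in Control the mean fell to 2.24 ± 1.12 in Model, 0.198 times the Control level, a log2 fold change of -1.97 (SE 0.29, adjusted p = 0.00737, limma). This was the lowest adjusted p of any member in that comparison. The call held in 18 of 19 alternatives and was lost only where no expression filter was used (limma adjusted p = 0.0715). That setting tested many more genes and also refitted the shared estimate of spread, and their parts were not tested. Exons of Stab1 overlap those of Nt5dc2 on the other strand, and the counting strand was not given in the sources used here, so reads from the overlap cannot be told apart. Nt5dc2 itself was at 4.60 and 1.76 FPKM in Control and between 0.387 and 1.27 in the treated libraries.

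Cd163, the receptor for haemoglobin bound to haptoglobin, was at 0.152 and 0.184 FPKM (Control), 0.298 and 0.118 (Model) and 0.0727 and 0.0338 (MUS). These levels came from 19 and 23, 23 and 10, and 6 and 3 fragments. With the filter removed its log2 fold changes were 0.04 in Model vs. Control, -0.19 in MUS vs. Model and -0.15 in MUS vs. Control, with adjusted p from 0.589 to 0.801. At this level the added 1 FPKM holds such values near 0 whatever the depth, so they do not test Cd163. The mean FPKM of MUS was 0.256 times that of Model and 0.317 times that of Control, and its 2 libraries lay below the other 4, on 6 and 3 fragments.

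Axl (ENSMUSG00000002602, chr7:25757273-25788705, minus strand), a receptor tyrosine kinase of the TAM family, had a level of 24.4 and 48.2 FPKM for Control, 113 and 116 for Model and 125 and 125 for MUS. The 4 treated libraries lay in a narrow band above both Control libraries. Its mean was 36.3 ± 16.8 FPKM in Control and 114 ± 1.45 in Model, a 3.15-fold rise, with a log2 fold change of 1.71 (SE 0.37, limma adjusted p = 0.0245). The batches gave 2.17 and 1.24 on the log2 scale. The call ended without Control replicate 1, where the value was 1.23, and without either Model library. The call also ended without either MUS library, which left the value at 1.71 and changed only the estimate of spread. It held in 10 of 19 alternatives with values of 1.02 to 2.18.

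Mertk (ENSMUSG00000014361, chr2:128698956-128802894, plus strand), its relative in the same family, was at 24.1 and 11.3 FPKM in the Control libraries, 16.3 and 30.9 with Model treatment and 45.9 and 40.9 under MUS. Control and Model overlapped, and the batches moved in opposite directions, by -0.53 and 1.37 on the log2 scale. Between Control and Model its log2 fold change was 0.42 (95% interval -0.60 to 1.44, adjusted p = 0.527) and changed sign on fragment totals (-0.10, or 0.30 relative to the median of all genes). Tyro3, the remaining kinase of the TAM family, was at 0.0343 to 0.139 FPKM in every library and failed the filter. Axl and Mertk thus stood for nearly all TAM receptor message in these cells, with Axl 1.01 and 4.25 times Mertk for Control, 6.95 and 3.74 times for Model and 2.73 and 3.06 times for MUS.

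Gas6 (ENSMUSG00000031451, chr8:13465374-13494490, minus strand), the bridging ligand of all TAM kinases, was at 11.7 and 3.21 FPKM (Control), 1.31 and 1.62 (Model) and 1.22 and 1.55 (MUS). Both Control libraries were above the treated ones, but they were far apart from each other. The mean level was 7.45 ± 6.0 FPKM in Control and 1.46 ± 0.222 in Model, 0.197 times as high, with a log2 fold change of -1.57 (SE 0.47) that missed the threshold (limma adjusted p = 0.0634). With batch as a replicate block the same value passed (adjusted p = 0.0454). It also passed on fragment totals (-2.03, adjusted p = 0.0316) and without Control replicate 2 (-2.37, adjusted p = 0.00275), whereas without Control replicate 1 the value was -0.77 (adjusted p = 0.157). Exons of Gas6 overlap those of Tmem255b on the other strand, which was listed at 0 in 5 libraries and at 0.0896 FPKM in Model replicate 1. Pros1, the other TAM ligand, had a level of 9.03 to 13.8 FPKM in Control and 11.6 to 16.0 in the treated libraries and did not pass in any comparison (adjusted p = 0.833 in Model vs. Control). Tyro3 and Pros1 were picked out here after their values were seen.

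Mfge8, the milk fat globule protein that links phosphatidylserine to alpha-v integrins, was at 152 and 110 FPKM for Control, 139 and 112 for Model and 73.9 and 110 for MUS. Its libraries overlapped between Control and Model. The log2 fold change there was -0.05 (95% interval -0.89 to 0.78, adjusted p = 0.930).

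Control replicates 1 and 2 differed in several members at once. Msr1, Axl and Marco were higher, and Gas6 and Mertk lower, in Control replicate 2. Il1b, the inflammasome cytokine gene that LPS induces, was at 0.550 FPKM in Control replicate 1 and 34.2 in Control replicate 2, against 4750 to 7646 FPKM in the treated libraries. Il1b was chosen after its values were seen, and its part in the spread of the members was not tested.

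**Figure D2:**
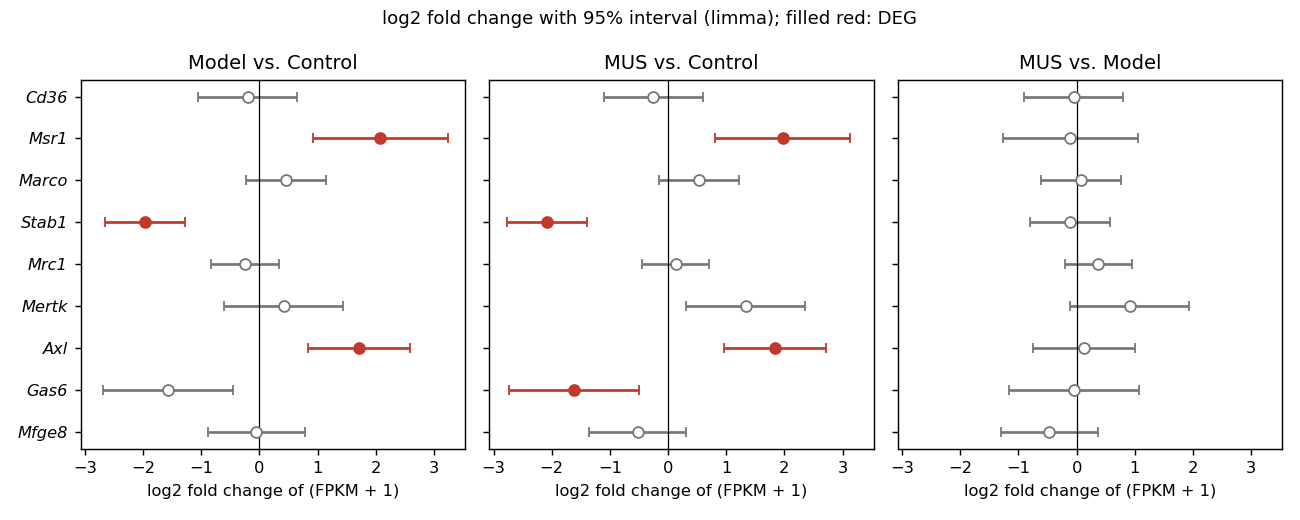
Log2 fold change of FPKM + 1 for the 9 members tested in Model vs. Control, MUS vs. Model and MUS vs. Control, with 95% intervals as bars and DEGs filled in red. The intervals of Msr1, Axl, Stab1 and Gas6 lie clear of 0 in both comparisons with Control, and every interval in MUS vs. Model includes 0.

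No member was a DEG in MUS vs. Model, in which muscone is the only difference the labels give. By limma 0 of the 9 members tested passed at an adjusted p of 0.05 and 0 had an unadjusted p under 0.05. Of all genes tested 0% were DEGs, with 825 at an unadjusted p under 0.05. The lowest adjusted p of any member was 0.647, and the median log2 fold change of the 9 was -0.05 against 0.01 for all genes. The libraries did not overlap for 4 members (Mrc1, Mertk, Axl and Mfge8), where 42.1% of all genes did not overlap.

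Mertk had the highest log2 fold change of the members in this comparison. Its mean level was 23.6 ± 10.3 FPKM in Model and 43.4 ± 3.53 in MUS, 1.84-fold, with a log2 fold change of 0.91 (SE 0.43, 95% interval -0.11 to 1.94, limma adjusted p = 0.647). The batches gave 1.44 and 0.39 on the log2 scale, so both were higher with muscone but by unequal amounts. Over the alternatives the value ran from 0.47 to 1.35 and passed in none.

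Mrc1 was higher with muscone in both batches, by 0.54 and 0.22 on the log2 scale, with a log2 fold change of 0.38 (95% interval -0.20 to 0.96, limma adjusted p = 0.743). Mfge8 was lower in both, by -0.90 and -0.03, with a log2 fold change of -0.47 (95% interval -1.30 to 0.37, adjusted p = 0.778). The second Mfge8 difference rests on levels of 112 and 110 FPKM, which are next to equal. Axl was higher by 0.14 and 0.11, a log2 fold change of 0.13 (95% interval -0.75 to 1.01, adjusted p = 0.960).

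The log2 fold change was -0.11 for Msr1 and for Stab1, -0.05 for Gas6 and for Cd36, and 0.07 for Marco. The Msr1 interval ran from -1.27 to 1.06, so a change of up to about the size that counts as a DEG in either direction lay within it.

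In MUS vs. Control 2 members rose and 2 fell, against 11.3% and 8.91% of all genes tested (20.2% in both directions). The comparison shares its Control libraries with Model vs. Control and its MUS libraries with MUS vs. Model, and so it is no independent repeat of either. The median log2 fold change of the 9 members was 0.13 and that of all genes 0.04. All members tested except Mrc1 had libraries that did not overlap, 8 of 9, where 73.3% of all genes did not overlap.

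Msr1 rose 3.52-fold, to 295 ± 33.5 FPKM, with a log2 fold change of 1.97 (SE 0.49, limma adjusted p = 0.0293). Axl rose 3.45-fold, to 125 ± 0.342 FPKM, with a log2 fold change of 1.84 (SE 0.37, adjusted p = 0.0152). Stab1 fell to 1.94 ± 0.572 FPKM, 0.171 times Control, a log2 fold change of -2.08 (SE 0.29, adjusted p = 0.00494). All 3 had also passed in Model vs. Control, against the same Control libraries. Without Control replicate 1 the Msr1 value was 1.25 (adjusted p = 0.0610) and the Axl value 1.36 (adjusted p = 0.0357). Without MUS replicate 1, which left that group with 1 library, none of the members passed (adjusted p = 0.199 for Msr1, 0.128 for Axl and 0.0628 for Stab1), and without MUS replicate 2 the Msr1 and Axl calls were lost (adjusted p = 0.121 and 0.0955).

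Gas6 fell to 1.38 ± 0.230 FPKM, 0.186 times Control, with a log2 fold change of -1.62 (SE 0.47, limma adjusted p = 0.0464). The call was close to the threshold. It ended without any of Control replicate 1 (-0.82, adjusted p = 0.106), Model replicate 1 (-1.62, 0.0733), Model replicate 2 (-1.62, 0.0727), MUS replicate 1 (-1.52, 0.235) and MUS replicate 2 (-1.72, 0.145).

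Mertk, at 2.45 times its Control level of 17.7 ± 9.02 FPKM, had a log2 fold change of 1.33 (SE 0.43, 95% interval 0.31 to 2.36) with an adjusted p of 0.0635 by limma. Without Control replicate 1 the Mertk value was 1.84. Over 19 alternatives it ran from 0.81 to 1.84 and passed in 2. The batches gave 0.90 and 1.76, so both MUS libraries were above their Control partner. The remaining values were 0.53 for Marco (adjusted p = 0.224), 0.13 for Mrc1 (adjusted p = 0.719), -0.25 for Cd36 (adjusted p = 0.630) and -0.52 for Mfge8 (adjusted p = 0.314). Mfge8 passed in 3 of 19 alternatives, at -1.06 after rescaling without mitochondrial and highest genes (adjusted p = 0.0470), -1.29 with quantile normalization (adjusted p = 0.0360) and -1.07 by voom on recovered fragments (adjusted p = 0.0412).

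**Figure D3:**
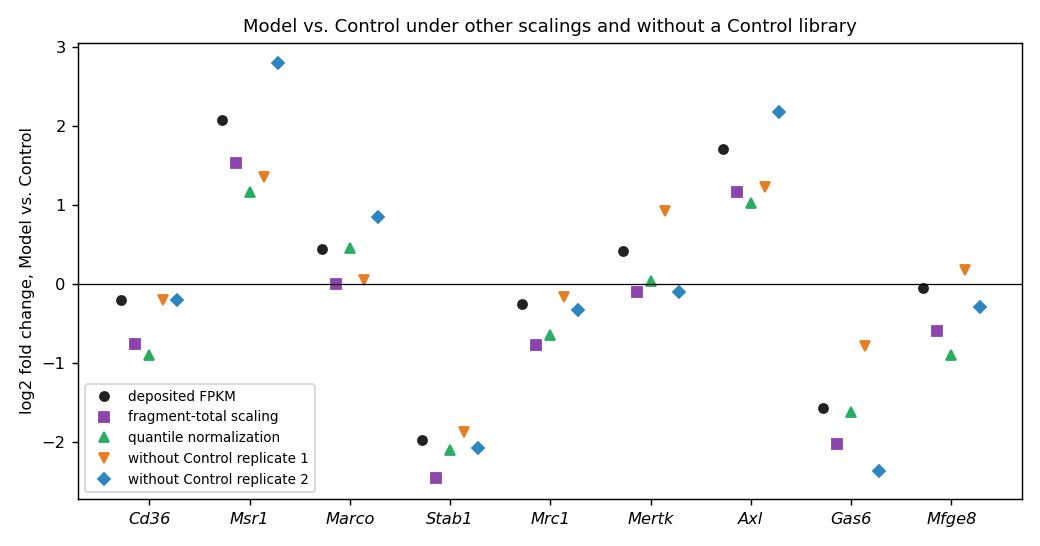
Log2 fold change of each tested member in Model vs. Control, with 1 symbol each for the deposited FPKM, fragment-total scaling, quantile normalization and the fits without Control replicate 1 or 2. On fragment totals, which raise Control against Model for every gene, every member was lower than on deposited FPKM and Mertk changed sign. Msr1, Axl, Stab1 and Gas6 kept their direction under all 5. Leaving out a Control library could not reverse these genes, since their Control and Model libraries did not overlap.

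The scale of the Control libraries bears on every comparison with Control. On fragment totals Msr1 was at 1.53 (adjusted p = 0.0442), Axl at 1.17 (adjusted p = 0.0430), Stab1 at -2.45 (adjusted p = 0.00625) and Gas6 at -2.03 (adjusted p = 0.0316) in Model vs. Control. Relative to the median of all genes these were 1.94, 1.58, -2.05 and -1.62. Each of the 4 kept its direction, and with this scaling Gas6 joined the DEGs. The scaling raises Control against Model for every gene, so it could not reverse the falls of Stab1 and Gas6. Over all genes the split of DEGs was 930 up and 545 down on deposited FPKM and 646 up and 1554 down on fragment totals. In MUS vs. Control fragment totals gave 1.44 for Msr1 (adjusted p = 0.0467), 1.31 for Axl (adjusted p = 0.0261), -2.56 for Stab1 (adjusted p = 0.00418), -2.07 for Gas6 (adjusted p = 0.0236), 0.82 for Mertk (adjusted p = 0.209) and -1.05 for Mfge8 (adjusted p = 0.0566). The median of all genes in MUS vs. Control was -0.39 on fragment totals. In Model vs. Control with quantile normalization Msr1 (1.17, adjusted p = 0.138) and Axl (1.02, adjusted p = 0.0976) kept their direction but did not pass.

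**Figure D4:**
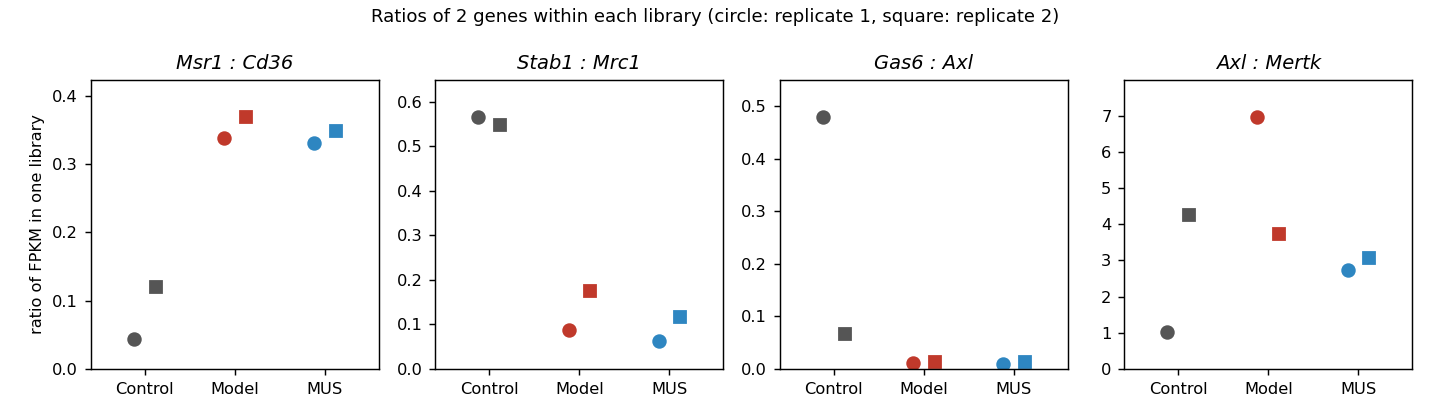
Ratio of FPKM within each library for Msr1 to Cd36, Stab1 to Mrc1, Gas6 to Axl and Axl to Mertk (linear axes from 0), with circles for replicate 1 and squares for replicate 2 in Control, Model and MUS. Msr1 relative to Cd36 is higher, and Stab1 relative to Mrc1 lower, in all 4 treated libraries than in both Control libraries.

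Ratios of a pair of members within a library do not depend on its scale, and these pairs were chosen after the values were seen, so no test was made. Msr1 was 0.0433 and 0.119 times Cd36 for Control, 0.339 and 0.369 times for Model and 0.332 and 0.349 times for MUS. Msr1 was thus higher relative to Cd36 in all treated libraries than in both Control libraries. Stab1 was 0.565 and 0.547 times Mrc1 for Control, 0.0867 and 0.176 times for Model and 0.0618 and 0.116 times for MUS. Stab1 was thus lower relative to Mrc1 in every treated library, though both are known from alternatively activated macrophages. Gas6 was 0.479 and 0.0666 times Axl for Control, 0.0115 and 0.0140 times for Model and 0.00973 and 0.0124 times for MUS, so ligand and receptor were least unequal in Control replicate 1. Mertk was 0.159 and 0.103 times Mfge8 for Control, 0.118 and 0.275 times for Model and 0.620 and 0.373 times for MUS, where both MUS libraries exceeded the other 4.

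The other genes of uptake were read from 7 lists, and in Model vs. Control their DEGs lay in both directions. Of the other scavenger receptors 10 of 20 were tested, of which 1 rose (Cxcl16, which is both a chemokine and a receptor for oxidised lipoprotein, 1.73) and 1 fell (Scarb1, the high density lipoprotein receptor, -1.33). Of the other apoptotic cell receptors 12 of 18 were tested, of which 1 rose (Itgav, the alpha-v integrin that Mfge8 bridges to, 1.76) and 3 fell (Cd300lb -3.42, Cd300a -2.54 and the integrin Itgb3 -1.26). Cd300lb, a lipid-binding immunoglobulin receptor, went from a level of 81.5 ± 21.6 FPKM in Control to 6.60 ± 1.19 in Model (limma adjusted p = 0.00225). Among the integrin partners of Mfge8, mean Itgav went from 11.7 to 41.8 FPKM (adjusted p = 0.0116) and Itgb3 from 2.65 to 0.510 FPKM (adjusted p = 0.0183). Itgb5, the more abundant beta partner, did not pass (-1.50, adjusted p = 0.0994), with Control libraries at 82.6 and 22.8 FPKM and Model libraries at 15.1 and 14.4, and was named after its values were seen.

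Of the other bridging molecules and opsonins 12 of 15 were tested and 2 rose, the pentraxin Ptx3 (4.02) and thrombospondin-1, Thbs1, a ligand that Cd36 binds (2.44, from 69.4 to 367 FPKM, limma adjusted p = 0.00907). Of the engulfment machinery 23 of 24 were tested, with 1 up (the adaptor Crkl, 1.02) and 2 down (the Rac activator Dock2, -1.60, and the mitochondrial carrier Ucp2, -1.19). Of 10 tested of 12 genes for inhibitory signals and receptor shedding 2 rose, the "don't eat me" protein Cd47 (1.75, adjusted p = 0.0115) and Rhbdf2 (1.75, adjusted p = 0.0396), which brings the sheddase Adam17 to the cell surface. Adam17, which cuts Mertk from the membrane, had a log2 fold change of -0.18 (adjusted p = 0.755), and was named after its values were seen.

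All 16 transcription factors of uptake genes were tested, of which 2 rose (Tfec 1.86 and Maf 1.53) and 2 fell. Those that fell were Pparg, the lipid-sensing receptor known to control Cd36 (-2.25, from 16.7 ± 10.5 to 2.41 ± 0.466 FPKM, limma adjusted p = 0.0124), and its partner Rxra (-1.88, adjusted p = 0.00857). Cd36 itself was at -0.20. All 12 genes of lipid handling were tested, of which 4 fell and 0 rose, namely the cholesteryl ester hydrolase Nceh1 (-2.19), the lysosomal cholesterol exporter Npc1 (-1.70), the cholesterol esterifying enzyme Soat1 (-1.44) and the lysosomal lipase Lipa (-1.34, from 759 to 299.7 FPKM, adjusted p = 0.0351). The median log2 fold changes of the 7 lists, in the order given, were 0.00, -0.63, 0.37, 0.23, 0.31, -0.49 and -0.71, beside 0.04 for all genes. On fragment totals the lists held in the same order 0 up and 2 down, 1 and 5, 2 and 1, 0 and 5, 1 and 3, 0 and 6, and 0 and 5, so the split into higher and lower calls depends on the scale.

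**Figure D5:**
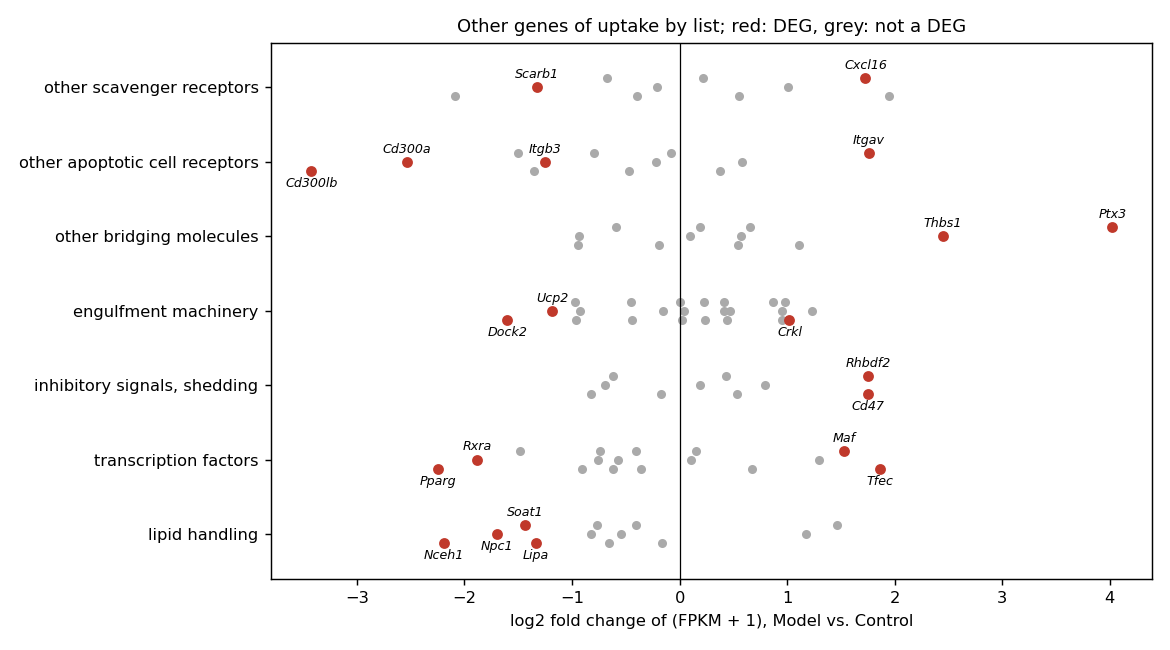
Log2 fold change of FPKM + 1 in Model vs. Control for each tested gene of the 7 lists, 1 row per list, with DEGs in red and named and the others in grey. DEGs lie on both sides of 0 in 4 lists, only above 0 for bridging molecules and inhibitory signals, and only below 0 for lipid handling.

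In MUS vs. Model 0 genes of the 7 lists were DEGs by limma. At an unadjusted p under 0.05, where 825 of all 9794 genes tested lay, there were 4 list genes. These were Nr1h2, the liver X receptor beta (-0.97, adjusted p = 0.463), the autophagy gene Becn1 (0.64, adjusted p = 0.464), the small GTPase Rhog (-1.05, adjusted p = 0.503) and the scavenger receptor Scarf1 (-0.95, adjusted p = 0.513). Thbs1, not among these 4, was at 367 ± 46.0 FPKM in Model and 581 ± 10.8 in MUS. Its log2 fold change of 0.67 did not pass (limma adjusted p = 0.721).

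In MUS vs. Control the other scavenger receptors again had Cxcl16 up (1.54) and Scarb1 down (-1.43), and the other apoptotic cell receptors Itgav up (1.76) and Cd300lb (-3.41), Cd300a (-2.98) and Itgb3 (-1.20) down. The bridging molecules had Ptx3 (3.39) and Thbs1 (3.11) up and the complement subunit C1qc down (-1.85, from 142 ± 45.0 to 37.9 ± 6.10 FPKM, limma adjusted p = 0.0175). The engulfment machinery had the focal adhesion kinase Ptk2 (1.09) and Becn1 (1.05) up and Ucp2 (-1.59) and Elmo2 (-1.03) down. Cd47 was up (1.78) and its receptor Sirpa down (-1.22, from 263 ± 30.8 to 114 ± 28.9 FPKM, adjusted p = 0.0401). Of the transcription factors Tfec (1.78) and the glucocorticoid receptor Nr3c1 (1.68) were up, and Pparg (-2.16), Rxra (-2.06), the liver X receptor alpha gene Nr1h3 (-1.30) and Rxrb (-1.22) were down. Of the lipid genes Nceh1 (-1.95) and Soat1 (-1.58) were down. Of all genes tested, 11.3% rose and 8.91% fell in this comparison. Over the alternatives 48 of 133 counts of list DEGs did not stay within 1.5 times. On fragment totals the median log2 fold change of all genes was -0.39.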

How the data were processed

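Poly-A RNA of 6 macrophage libraries was measured, 2 each of Control, Model and MUS. The values used are the FPKM that the authors deposited in 1 table of 54532 genes. The study's methods name RSEM for FPKM, whereas the submitters' processing notes list HISAT2, featureCounts 1.5.0-p3 and GRCm39, and these were not reconciled. The listed positions fit GRCm38, since 98.3% of 54495 shared identifiers have the same start and end in GENCODE M21. FPKM times gene length came out as whole fragments (within 0.1) for 100% of values, which gave the depth of 15526321 to 17135442 fragments per library. Depth covers counting error only.

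Genes with a mean of at least 1 FPKM over the 6 libraries (9794) were fitted on log2(FPKM + 1) in limma 3.58.1 (R 4.3.3; lmFit, contrasts.fit, eBayes with trend, 3 residual and 4.04 prior degrees of freedom), 2-sided, with Benjamini-Hochberg adjustment over all of them. A fold change on this scale understates the change of low genes. DEGs had adjusted p of at most 0.05 and a log2 fold change beyond 1 in either direction, which are the study's thresholds. A pseudocount of 1 was used. Folds of FPKM are ratios of group means without it. Batch, which the labels give as the replicate number, was the block of a paired alternative. Deviations of same-numbered libraries from their group means had r of 0.12 (Control and Model), 0.14 (Model and MUS) and -0.09 (Control and MUS) across genes. The procedure was tested on simulated data. Tables were made with Python 3.11.15 and pandas 2.3.3.

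Alternatives changed the pseudocount, filter, scaling, libraries in the fit, block, trend and test, including voom on recovered fragments, and left out each library. The members and lists were chosen with earlier results of these data known. The text names all 10 members, up to 4 DEGs per direction of each list by absolute log2 fold change, the 4 list genes of lowest p where there was no DEG, and the most abundant gene of each marker list, except for 1 list that is not reported here. Shared stretches of 50 bases with other genes' transcripts made up 0% of 8 members, 0.0726% of Cd163 and 0.0460% of Stab1. Promoters are RefSeq sequences of GRCm38.p6.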

Additional observations from a re-analysis of the deposited data

How the results depend on the processing

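Each of 19 alternatives changed 1 choice, except that voom on recovered fragments changed the test, the offset and the scaling together. Of 170 values of members per comparison, 137 kept direction and side of the threshold in Model vs. Control, 160 in MUS vs. Model and 139 in MUS vs. Control. Counts of DEGs in the lists stayed within 1.5 times in 78, 133 and 85 of 133. The causes of the changes were not tested. Removing the filter tests more genes and also refits the shared estimate of spread. Leaving out a library leaves fewer samples, with the lone library of its group assumed to vary like the others.

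DEGs among all genes in Model vs. Control (1475, 63.1% up) numbered 260 with no filter, 2374 (24.6% up) after rescaling without mitochondrial and highest genes, 797 with only the groups compared, 2791 (24.5% up) by voom, and 692 to 2077 with a library left out. Fragment-total scaling gave 29.4% up and quantile normalization 49.7%. In MUS vs. Control (1980, 55.9% up) there were 456 with no filter, 3169 (23.8% up) by voom and 184 to 2398 with a library left out, and the share up was 27.4% on fragment totals, 26.8% after rescaling and 44.5% with quantile normalization. In MUS vs. Model (0) there was 1 with a pseudocount of 0.1, 7 with only the groups compared, 4 with the replicate block and 0 to 31 with a library left out, 31 without Model replicate 2. DEGs among the members in Model vs. Control (3) were 0 with no filter, 1 with quantile normalization, 1 with only the groups compared and 1 to 4 with a library left out. In MUS vs. Control (4) they were 0 with no filter, 2 with quantile normalization and 0 to 4 with a library left out.

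With the paired replicate block Model vs. Control had 1582 DEGs and MUS vs. Control 2125. Gas6 in Model vs. Control (-1.57, limma adjusted p = 0.0454) passed with it, and no other member's call changed.

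Direction reversed for members whose value did not pass in that comparison. In Model vs. Control Marco was -0.068 after rescaling and -0.0031 by voom, Mertk was -0.10 on fragment totals, -0.18 after rescaling, -0.12 by voom and -0.094 to 0.93 with a library left out, and Mfge8 ranged from -0.28 to 0.18 with a library left out, above 0 without Control replicate 1 or Model replicate 2. The median of all genes in Model vs. Control was -0.40 on fragment totals, -0.46 after rescaling and -0.51 by voom. In MUS vs. Control Mrc1 was -0.39 on fragment totals, -0.40 after rescaling, -0.26 with quantile normalization, -0.41 by voom and -0.011 to 0.27 with a library left out, below 0 without MUS replicate 1. There the median of all genes was -0.39 on fragment totals, -0.40 after rescaling, -0.06 with quantile normalization and -0.49 by voom. In MUS vs. Model Cd36 was 0.033 after rescaling, 0.037 with quantile normalization and -0.20 to 0.10 with a library left out, and Msr1 was 0.059 with quantile normalization and -0.22 to 0.0096 with a library left out. With a library left out Gas6 ranged from -0.15 to 0.050 and Stab1 from -0.47 to 0.24. Cd163 failed the filter and rested on 3 to 23 fragments per library.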
